A study of Homo sapiens with 6 samples.

Results

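The genes described here are 10 components and readouts of the Hippo pathway: the coactivators YAP1 and WWTR1 (the gene of TAZ), their DNA-binding partner TEAD1, the regulators LATS2, AMOTL1, AMOTL2 and AJUBA, and the targets ANKRD1, CCN1 (also CYR61) and CCN2 (also CTGF). They were picked by symbol, with earlier results of these data known. All 10 were found as Ensembl identifiers among the 27264 gene rows of the count table. Of the 10, 9 passed the filter on low counts that left 11732 genes for testing. The exception was AMOTL1. In the Hippo pathway, the kinases MST1 and MST2 (the genes STK4 and STK3) with their scaffold SAV1 activate LATS1 and LATS2, which phosphorylate YAP and TAZ and keep them out of the nucleus. Unphosphorylated YAP and TAZ enter the nucleus, bind TEAD proteins and switch on genes such as CCN1, CCN2 and ANKRD1. In the intestine the pathway is known for its part in regeneration and in tumour growth, and because it is controlled largely through the protein YAP, messenger RNA levels of the targets are the usual readout.

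The cells were DLD-1, an established line of epithelial colorectal cancer, in a study titled for epithelial-to-mesenchymal transition mediated by the transcription factor ZEB2. Libraries came from 3 clones, WT2, WT5 and WT37, each grown without DOX (cells labelled epithelial) and with DOX (cells labelled mesenchymal), which gave 6 libraries and 3 per group. Values per clone are listed throughout in the order WT2, WT5, WT37, called clone order. DOX is the usual short form of doxycycline, with dose and duration not given in the sources used here. All 6 libraries carry the label ZEB2 WT, so an effect of DOX itself and an effect of ZEB2 cannot be told apart. Each clone was sequenced once per condition, so the spread between libraries of a group is a spread between clones, and nothing in the labels gives a repeat culture of a clone. In such bulk RNA, fewer cells of a type and less RNA per cell cannot be told apart.

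RefSeq start sites (GRCh38.p14) were matched for 8 of the 10 genes, in 11 windows of 250 bases before a start. The letters GGAATG or their reverse complement CATTCC, the core of the sequence that TEAD proteins bind, were searched on both strands. They were in 5 of these 11 windows, against 11.9% of all 35116 windows of this length. CCN2 and ANKRD1 are shown because they are targets with repeated cores, and AMOTL2, for which the window of 1 of its 2 starts held a core, because it is itself known as a YAP target. Each sequence runs 5′ to 3′ on the strand of the gene and ends just before the start, with the TEAD core in capitals.
CCN2, chr6:131951373-131951622, minus strand: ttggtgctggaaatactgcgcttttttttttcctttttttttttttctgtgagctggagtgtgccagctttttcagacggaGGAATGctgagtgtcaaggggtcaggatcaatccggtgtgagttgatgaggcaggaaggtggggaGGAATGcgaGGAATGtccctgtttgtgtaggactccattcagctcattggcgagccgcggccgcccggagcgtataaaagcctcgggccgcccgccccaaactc
ANKRD1, chr10:90921088-90921337, minus strand: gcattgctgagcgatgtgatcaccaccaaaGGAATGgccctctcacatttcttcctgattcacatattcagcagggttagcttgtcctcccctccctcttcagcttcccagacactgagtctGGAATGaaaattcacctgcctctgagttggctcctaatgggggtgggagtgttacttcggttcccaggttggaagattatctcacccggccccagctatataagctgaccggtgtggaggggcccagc
AMOTL2, chr3:134374448-134374697, minus strand: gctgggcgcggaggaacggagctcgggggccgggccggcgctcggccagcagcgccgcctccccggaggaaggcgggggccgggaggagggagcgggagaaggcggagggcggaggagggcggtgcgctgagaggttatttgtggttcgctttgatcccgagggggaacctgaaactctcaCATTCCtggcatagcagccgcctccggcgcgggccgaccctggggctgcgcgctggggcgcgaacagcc
CCN2 held 3 cores, beginning 169, 104 and 95 bases before the start, and only 0.0826% of all windows held 3 or more. ANKRD1 held 2 cores, beginning 220 and 128 bases before the start, where 0.94% of windows held 2 or more. YAP1, AMOTL2 and AJUBA had 1 core each, at 162, 69 and 59 bases. AJUBA, like AMOTL2, held its core in the window of only 1 of its 2 starts. The E-box CACCTG or CAGGTG, which ZEB proteins bind, was in 3 of the 11 windows, against 17.5% of all windows. These were windows of LATS2, ANKRD1 and AJUBA, for AJUBA the same window that held the TEAD core. The TEAD core and the E-box do not overlap in these windows. A match describes letters only, and binding was not measured.

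Reads in genes numbered 5440093 to 7164426 per library. Levels are given as CPM, which scales each gene's reads to a common library total, after TMM scaling, which corrects library sizes for differences in composition. The libraries read the 3′ end of transcripts, so 1 read stands for 1 transcript end and levels of different genes can be compared without a correction for length. As a check of the labels, ZEB2 had 3 to 9 reads per library without DOX and 9 to 22 with DOX, an increase in each of the 3 clones. It did not pass edgeR's test (adjusted p = 0.780, and 0.225 with the clone as a block). The labels do not describe a ZEB2 construct, so whether these 3′-end reads would count its transcript is not known. Of 7 epithelial markers, EPCAM and KRT18 fell and CDX2, an intestinal transcription factor, rose in edgeR's test with the clone as a block (log2 fold change -0.73, -0.69 and 0.42, adjusted p = 0.023, 0.0135 and 0.0464), and 0 changed without it. The blocked fit called 1.3% of all tested genes. These 3 calls of the blocked fit were lost when WT2 or WT37 was left out (adjusted p from 0.136 to 0.512), which leaves 2 clones, and were kept without WT5. DESeq2, an alternative program, called 5 of the 7 with the block (1.41% of all genes), adding CDH1 and VIL1, and VIL1 alone without it (0.486%). CDH1 had a log2 fold change of -0.52 (edgeR, adjusted p = 0.568 without the block and 0.141 with it). That of VIL1, with 6 to 94 reads per library, was -1.94 (edgeR, adjusted p = 0.413 and 0.142). For KRT8, the other abundant keratin of the list, the log2 fold change was -0.65 (edgeR, adjusted p = 0.693 without the block and 0.155 with it). The list's median was -0.65, and its summed level ranged from 5678 to 7433 CPM without DOX and from 3427 to 4867 CPM with DOX. Of 7 mesenchymal markers, only FN1 and ZEB2 were tested and TWIST1 had 0 reads in all libraries. Their summed level was 11.8 to 15.7 CPM without DOX and 9.73 to 18.1 CPM with DOX. Most of it was FN1, except in WT2 with DOX (4.12 of 9.73 CPM). FN1 had means of 11.2 and 7.73 CPM and did not pass (edgeR, adjusted p = 0.923 without the block and 0.287 with it). VIM had 1, 3 and 5 reads in libraries without DOX and 5, 8 and 15 in those with it. ZEB1 had 1, 1 and 1, then 4, 9 and 11. Both were too scarce to be tested, but in CPM their groups did not overlap, as for 5.33% of all tested genes in that direction. That share was taken over tested genes only, so it does not cover genes filtered as low, such as VIM and ZEB1. For VIM the groups met at 5 reads and were apart only after scaling (0.687 and 0.824 CPM). VIM and ZEB1 were chosen after their values were seen. CDH2 (1, 1 and 7 reads, then 4, 6 and 5) and SNAI2 (2, 3 and 0, then 1, 0 and 3) were also too scarce, and their groups overlapped. Markers of other cell types summed to at most 10.6 CPM in any library, with PECAM1 at 0 reads throughout.

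Over the 6 libraries, the most abundant of the 10 genes was CCN1, at 180.3 ± 68.5 CPM (SD, n = 6), followed by AJUBA at 87.3 ± 15.5 CPM. WWTR1 (56.0 ± 7.43), AMOTL2 (53.3 ± 7.92) and YAP1 (48.4 ± 4.70 CPM) came next, and their ranges overlapped, so their order is not larger than their spread. TEAD1 was at 35.6 ± 5.93 and LATS2 at 31.0 ± 4.81 CPM, again with overlapping ranges. CCN2 followed at 18.9 ± 6.48 CPM, with a range that overlapped those of LATS2 and TEAD1. Ranges also overlapped between AJUBA and both WWTR1 and AMOTL2, and between YAP1 and TEAD1. The scarcest were ANKRD1 at 2.13 ± 1.05 CPM and AMOTL1 at 0.286 ± 0.222 CPM. DLD-1 cells thus carried messages for both coactivators at similar levels, while the 3 targets ranged from ANKRD1, with 6 to 20 reads per library, to CCN1, with 832 to 2389.

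With DOX, none of the 9 tested genes changed in edgeR's quasi-likelihood test on all 6 libraries (Benjamini-Hochberg adjusted p under 0.05), and 0 of the 9 had an unadjusted p under 0.05. The same test called 0 of 11732 genes, or 0%, and gave 6.04% of them an unadjusted p under 0.05. With the clone as a block, which compares the libraries of each clone with each other, it called 1.3% of all genes, 0.656% higher and 0.639% lower, and again 0 of the 9. TEAD1 and AJUBA had an unadjusted p under 0.05 in that fit, as had 12.9% of all genes. DESeq2 without the block called 0 of the 9 and 0.486% of all genes, and with it 0 of the 8 that were given an adjusted p (ANKRD1 was not) and 1.41% of all genes. At an unadjusted p under 0.05, DESeq2 held CCN1 alone without the block (5.02% of all genes) and 0 of the 9 with it (5.95%). Of the 9 fold changes, 8 were above 0, with a median log2 value of 0.18, whereas over all tested genes 51.3% were above 0 and the median was 0.01. These values describe the genes and are no test of the list.

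**Figure D1:**
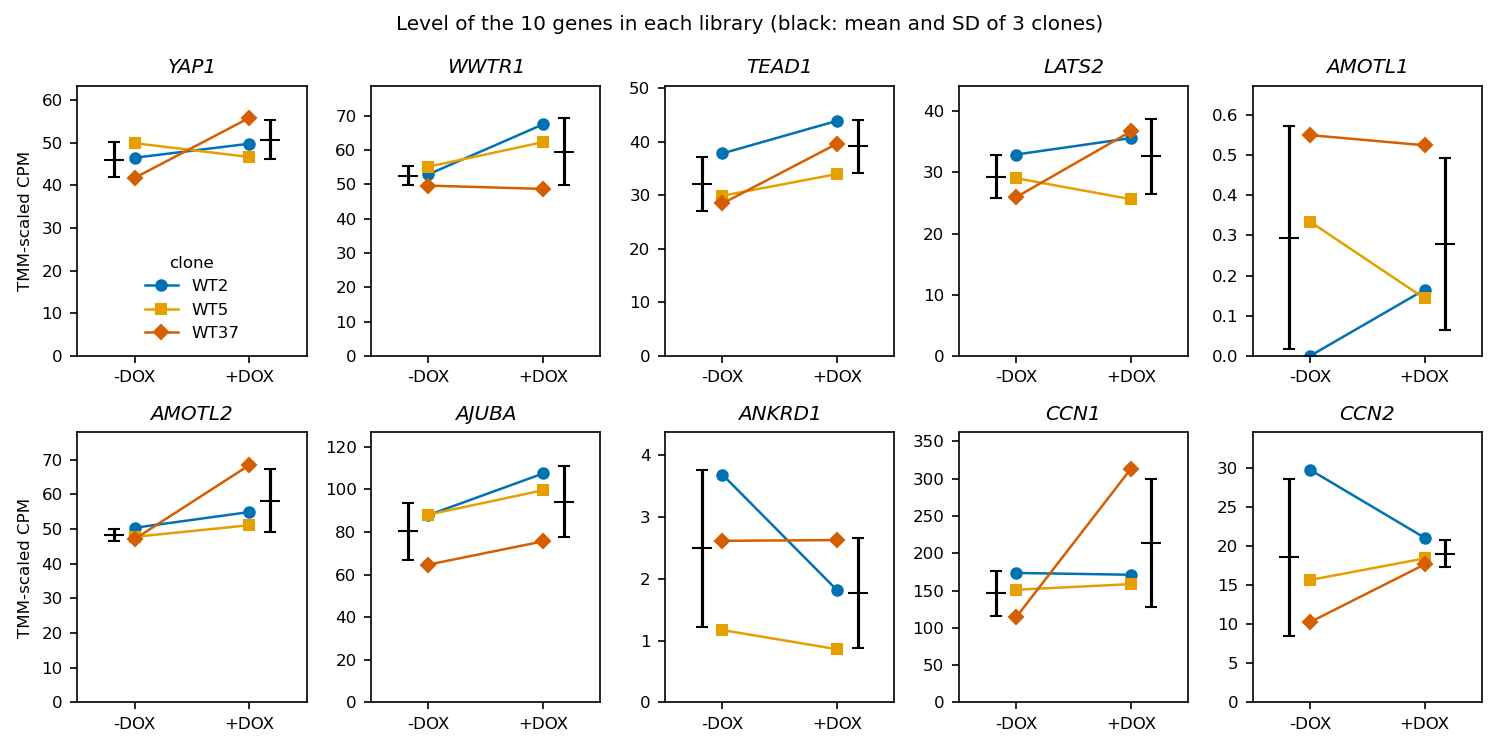
Level of each of the 10 genes in TMM-scaled CPM (vertical axis, starting at 0) without and with DOX, with a line joining the 2 libraries of each clone. Black bars give the mean and SD of the 3 clones. CCN1 in WT37 with DOX, at 313 CPM, lies apart from the other 5 libraries, which lie between 114 and 174 CPM.

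YAP1, the coactivator that the kinases restrain (ENSG00000137693, chromosome 11, 102110461 to 102233423, plus strand), was at 46.5, 49.9 and 41.8 CPM without DOX, in clone order, and at 49.8, 46.7 and 55.9 CPM with DOX. The level was higher with DOX in WT2 and WT37 and lower in WT5, and the groups overlapped. Its log2 fold change was 0.14 ± 0.14 SE (edgeR, adjusted p = 0.969). WWTR1, which encodes the paralogous coactivator TAZ (ENSG00000018408, chromosome 3), had 52.9, 55.1 and 49.6 CPM without DOX and 67.4, 62.3 and 48.6 CPM with DOX. Here WT2 and WT5 were higher with DOX and WT37 was not, the reverse of the pattern of YAP1 for WT5 and WT37. The log2 fold change was 0.18 ± 0.15 SE (edgeR, adjusted p = 0.958).

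TEAD1, the transcription factor that carries YAP and TAZ to DNA (ENSG00000187079, chromosome 11), was at 37.8, 29.9 and 28.4 CPM without DOX and at 43.9, 33.9 and 39.6 CPM with DOX. All 3 clones were higher with DOX, as were 17.8% of all tested genes, but the groups overlapped because WT2 was high in both. Its estimate on the log2 scale was 0.29 ± 0.16 SE without the block (edgeR, adjusted p = 0.903) and 0.29 ± 0.13 SE with it (adjusted p = 0.344). Its paralogs TEAD4 and TEAD3 had mean levels of 34.2 and 16.0 CPM without DOX and 32.6 and 15.7 CPM with DOX. The order of TEAD4 and TEAD1 differed by clone, with 31.8, 45.0 and 23.3 CPM for TEAD4 and 40.8, 31.9 and 34.0 CPM for TEAD1 in clone order, and TEAD4 differed among clones (edgeR, adjusted p = 0.00886). TEAD2 had at most 3 reads in any library.

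LATS2, a kinase that phosphorylates YAP and TAZ and is also known as a YAP target (ENSG00000150457, chromosome 13), was at 32.9, 29.1 and 26.0 CPM without DOX and at 35.6, 25.6 and 36.7 CPM with DOX. WT37 was higher with DOX, WT5 was lower, and the groups overlapped (log2 fold change 0.16 ± 0.18 SE, edgeR, adjusted p = 0.972). AMOTL2, an angiomotin-like scaffold that holds YAP at junctions and in the cytoplasm (ENSG00000114019, chromosome 3), had 50.4, 47.8 and 47.1 CPM without DOX and 54.9, 51.1 and 68.4 CPM with DOX. It was the 1 gene of the 9 whose groups did not overlap, all 3 libraries with DOX lying above all 3 without, as for 5.33% of all tested genes, while 0 of the 9 lay wholly below, as did 6.08% of all genes. The log2 fold change was 0.27 ± 0.14 SE without the block and 0.26 ± 0.12 SE with it (edgeR, adjusted p = 0.901 and 0.402). The pseudogene RPL39P5 overlaps the end of AMOTL2 and had at most 6 reads in a library.

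AMOTL1, the other angiomotin-like gene (ENSG00000166025, chromosome 11), had 0, 2 and 4 reads in the libraries without DOX, and 1, 1 and 4 in those with it. A count of 0 in WT2 allows a level of up to 0.581 CPM (3 reads, counting error only), and no difference was detectable at this depth. An antisense gene of the annotation, AP002383.2, covers the end of AMOTL1. AMOTL2 was therefore the angiomotin-like gene measured here, with AMOT, the founding member of the family, at 12.4 CPM without DOX and 12.2 CPM with DOX. AJUBA, a LIM protein that binds LATS kinases at junctions and restrains them (ENSG00000129474, chromosome 14, 22971174 to 22982642, minus strand), was at 88.0, 88.2 and 64.7 CPM without DOX and at 107.5, 99.6 and 75.6 CPM with DOX. Every clone had more AJUBA with DOX, by ratios of 1.22, 1.13 and 1.17, and the groups overlapped because WT37 was low in both. The fit over all clones gave a log2 fold change of 0.23 ± 0.17 SE without the block (edgeR, adjusted p = 0.948) and 0.23 ± 0.10 SE with it (adjusted p = 0.346). Another annotated gene, AL132780.3, covers the end of AJUBA on the same strand and has no row in the count table.

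CCN1, a secreted matricellular protein and one of the most used readouts of YAP (ENSG00000142871, chromosome 1, 85580761 to 85583962, plus strand), had 896, 905 and 832 reads in the libraries without DOX, and 1038, 1108 and 2389 in those with it. These are levels of 173.6, 151 and 114 CPM without DOX and of 171, 159 and 313 CPM with DOX. WT37 went from the lowest library to the highest, a ratio of 2.74, while the ratios in WT2 and WT5 were 0.986 and 1.05. The log2 fold change of 0.55 ± 0.26 SE did not pass edgeR's test (adjusted p = 0.871 without the block and 0.636 with it, from 146 ± 29.9 to 214 ± 85.9 CPM, SD, n = 3 each). Without WT37 the log2 fold change was 0.02, and without a filter on low counts CCN1 passed without the block (adjusted p = 0.0303) and not with it (0.8996).

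CCN2, the related matricellular protein with 3 TEAD cores before its start (ENSG00000118523, chromosome 6, 131948176 to 131951373, minus strand), had 154, 94 and 75 reads in libraries without DOX, and 128, 129 and 135 in those with it. The levels were 29.8, 15.7 and 10.3 CPM without DOX and 21.1, 18.5 and 17.7 CPM with DOX. The clones thus differed widely without DOX (SD 10.1 CPM) and lay close together with it (SD 1.79 CPM), with means of 18.6 and 19.1 CPM. On average the log2 fold change was 0.05 ± 0.33 SE without the block (edgeR, adjusted p = 0.997) and 0.14 ± 0.22 SE with it (adjusted p = 0.828). The value without the block was -0.20 when WT37 was left out, -0.03 when WT5 was and 0.48 when WT2 was. ANKRD1, an ankyrin repeat protein of muscle and stressed cells (ENSG00000148677, chromosome 10), had 19, 7 and 19 reads in libraries without DOX, 11, 6 and 20 in those with it, and its log2 fold change of -0.47 ± 0.52 SE (edgeR, adjusted p = 0.972) rests on these few reads.

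Within a clone there was 1 library per condition, so no test was possible, and an exact 95% interval of the ratio covers counting error only. In WT37 this interval lay above 0 on the log2 scale for 7 of the 9 genes, whereas it did so for 17.7% of all tested genes in that clone, and for 19.7% of those with 100 to 4000 reads in the 2 libraries. For 0 of the 9 it lay below 0, as it did for 19.8% of all genes. The 9 genes were chosen with earlier results of these data known, so these counts are no test of the list. The 7 were YAP1 (log2 ratio 0.42, interval 0.20 to 0.64), TEAD1 (0.48, 0.22 to 0.74), LATS2 (0.50, 0.23 to 0.77), AMOTL2 (0.54, 0.34 to 0.74), AJUBA (0.23, 0.05 to 0.40), CCN1 (1.45, 1.34 to 1.57) and CCN2 (0.78, 0.36 to 1.21). Only WWTR1 and ANKRD1 had intervals that included 0 there. CCN1 was also the 1 gene of the 9 that was at least 2-fold higher in WT37, as were 3.32% of all genes.

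In WT2 the interval lay above 0 for 2 of the 9 genes, WWTR1 (0.35, 0.13 to 0.58) and AJUBA (0.29, 0.11 to 0.47), and below 0 for CCN2 (-0.50, -0.85 to -0.15). In that clone 12.3% of all genes lay above and 13.7% below. In WT5 it lay above 0 for AJUBA alone (0.18, 0.01 to 0.34), against 14.8% of all genes, and below 0 for 0 of the 9, against 14.6%. For the 9 genes the median log2 ratio was 0.11, 0.10 and 0.48 in clone order, with medians over all tested genes of 0.0016, 0.0021 and -0.0003. Since each clone has a single pair of libraries, the difference between clones in response to DOX was not tested. ZEB2 counts moved with this order in part, with 3 and 22 reads in WT37, 9 and 20 in WT2 and 5 and 9 in WT5 without and with DOX, and so did the median of the epithelial markers, at -0.75, -0.19 and -0.97 in clone order. Their part in the values of the 9 genes was not tested.

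**Figure D2:**
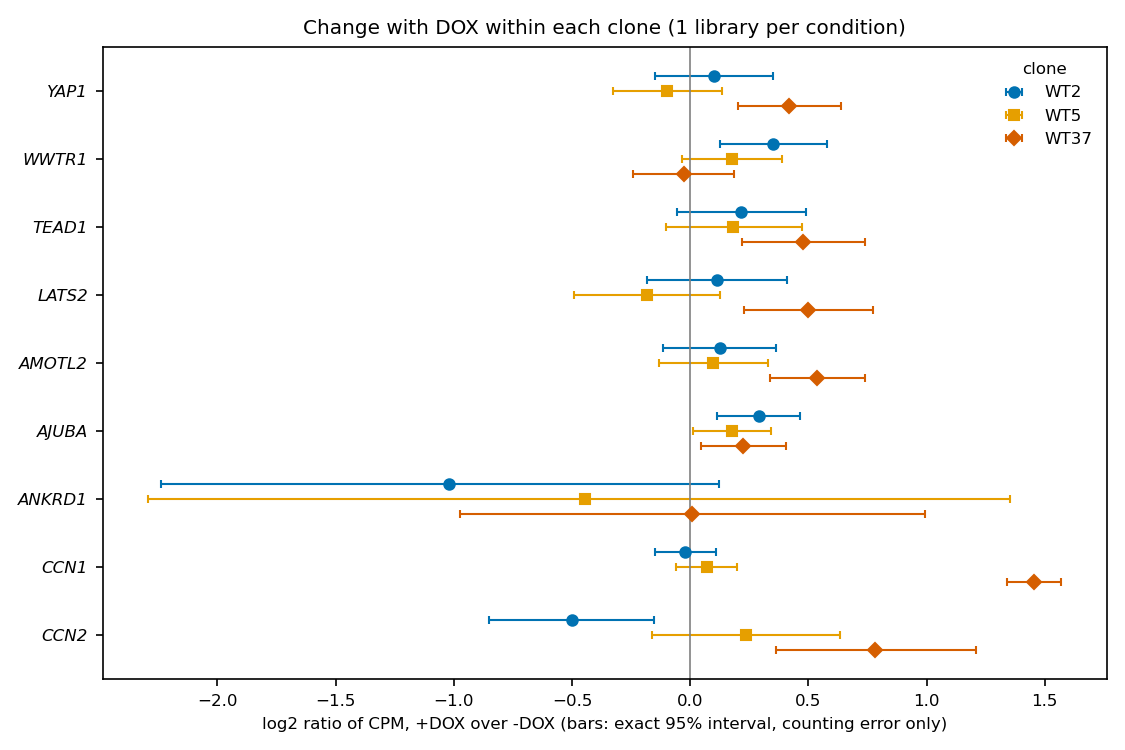
Log2 ratio of CPM with DOX over without DOX for the 9 tested genes (horizontal axis), 1 point per clone, with exact 95% intervals for counting error. The WT37 points of 7 genes lie above 0 with their intervals, CCN1 farthest at 1.45, and CCN2 lies below 0 in WT2 and above 0 in WT37.

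Clones were compared in a fit that also holds a DOX term and so takes its effect to be equal in all 3. The overall clone term called 0 of the 9 genes (edgeR, adjusted p under 0.05) and 6.84% of all tested genes, with 3 of the 9 and 24.8% of all genes at an unadjusted p under 0.05. AJUBA was nearest, with an adjusted p of 0.0533, and it was the 1 gene of the 9 called in a comparison of 2 clones, where 5.83% of all genes were called between WT37 and WT2, 5.92% between WT37 and WT5 and 1.02% between WT5 and WT2. Its level in WT37 was lower than in WT2 by a log2 value of -0.48 ± 0.12 SE (edgeR, adjusted p = 0.0399, mean levels of 70.2 and 97.7 CPM over 2 libraries each), as were 2.68% of all genes. Against WT5, at 93.9 CPM, the log2 difference of AJUBA in WT37 was -0.42 ± 0.12 SE (adjusted p = 0.0598, not passing, and 0.0454 without a filter on low counts). DESeq2 did not call AJUBA between WT37 and WT2 (adjusted p = 0.129). Both WT37 libraries lay below the 4 libraries of the other clones.

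CCN2 averaged 25.5, 17.1 and 14.0 CPM in clone order, and its log2 difference of -0.87 ± 0.27 SE between WT37 and WT2 did not pass (edgeR, adjusted p = 0.0823). It passed without WT5 (adjusted p = 0.0428) and without a filter on low counts (0.00126). ANKRD1 was scarce in WT5, at 1.01 CPM against 2.75 in WT2 and 2.62 in WT37, with an unadjusted p of 0.0335 for the clone term and an adjusted p of 0.163 (edgeR). YAP1 had means of 48.2, 48.3 and 48.8 CPM, a range far smaller than its spread between the libraries of a clone. CCN1, at 172, 155 and 214 CPM, had an adjusted p of 0.836 (edgeR), since its WT37 libraries differed more from each other than the clones did.

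Other genes of the pathway were taken as lists, with counts from edgeR to be read against the shares of all genes given above. In the kinase module (11 genes, all tested), 1 fell with DOX with the clone as a block and 0 rose, and without the block 0 changed. The gene that fell was SAV1, the scaffold of the MST kinases (ENSG00000151748). It had 302, 374 and 321 reads in libraries without DOX, and 221, 322 and 232 in those with it. SAV1 was lower with DOX in each clone, as were 17.2% of all genes. Its log2 fold change was -0.55 ± 0.12 SE with the block (edgeR, adjusted p = 0.0432), and the adjusted p was 0.649 without it and 0.101 in DESeq2 with the block. With WT2 or WT37 left out, the blocked fit no longer called SAV1 (-0.485 and -0.56, adjusted p = 0.379 and 0.368). ATL1 lies opposite the end of SAV1 and had at most 9 reads in a library. The most abundant genes of the module did not pass: the kinase MAP4K4 had a log2 fold change of 0.18, the LATS cofactor MOB1A of 0.07 and the kinase TAOK1 of 0.03, and the module's median was 0.07.

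Upstream regulators (14 of 16 tested) had 0 calls in either direction with and without the block and a median of 0.09. With the block, 3 of the 14 had an unadjusted p under 0.05 (12.9% of all genes). FRMD6 rose (log2 fold change 0.97 with the block, edgeR, adjusted p = 0.141), and CRB3 and PATJ fell (-0.65 and -0.47, adjusted p = 0.0822 and 0.276). Among the most abundant genes the changes were smaller. The protocadherin FAT1 had a log2 fold change of 0.29, the tumour suppressor NF2 (merlin) of 0.09 and the phosphatase PTPN14 of -0.16. The TEAD family and its other partners (6 of 8 tested) also had 0 calls, with a median of -0.08 and 1 of 6 above 0, and the most abundant of them, TEAD4, TEAD3 and the factor RUNX1, had log2 fold changes of -0.07, -0.02 and -0.08.

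Further genes known as YAP targets (15 of 17 tested) had 0 calls with and without the block, and 11 of 15 fold changes were above 0. With the block, 5 of the 15 had an unadjusted p under 0.05 (12.9% of all genes). Among these 5, F3 fell (log2 fold change -0.30 with the block, edgeR, adjusted p = 0.276). In all 3 clones 6 of the 15 were higher with DOX (17.8% of all genes) and 2, F3 and ASAP1, were lower (17.2%). The median log2 ratio of this list was 0.03, 0.04 and 0.59 in clone order, so WT37 had the highest median in this list and in the 9 genes. WT37 was also highest in the kinase module (0.20, -0.05 and 0.23) and in the immediate early genes described below (-0.23, -0.38 and -0.03). It was not highest in the upstream regulators, the TEAD family and its partners, the SRF targets described below or the epithelial markers. The surface enzyme NT5E had 89.5 CPM without DOX and 119 CPM with it (log2 fold change 0.42, adjusted p = 0.8995 in edgeR without the block and 0.162 with it), with log2 ratios of 0.42, 0.07 and 0.84 in the clones. For the transmembrane protein CRIM1 it was 0.39 (adjusted p = 0.858 and 0.132), with log2 ratios of 0.38, 0.23 and 0.59, but FEZ2 lies opposite its end and had up to 979 reads in a library. PTPN14, named above among the upstream regulators and the most abundant of these targets, was at -0.16.

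Some targets with large values in WT37 were chosen after their values were seen. CCDC80, a matrix protein, had 11, 41 and 54 reads in libraries without DOX and 56, 66 and 357 in those with it, a log2 fold change of 1.97 without the block and 1.82 with it (edgeR, adjusted p = 0.785 and 0.137). RBMS3, an RNA-binding protein filtered as low, had 2, 4 and 0 reads in libraries without DOX and 14, 7 and 23 in those with it. AXL, a receptor tyrosine kinase, had 16, 15 and 2 in libraries without DOX and 15, 14 and 10 in those with it. All 3 were higher with DOX in WT37, and the first 2 were higher in every clone.

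**Figure D3:**
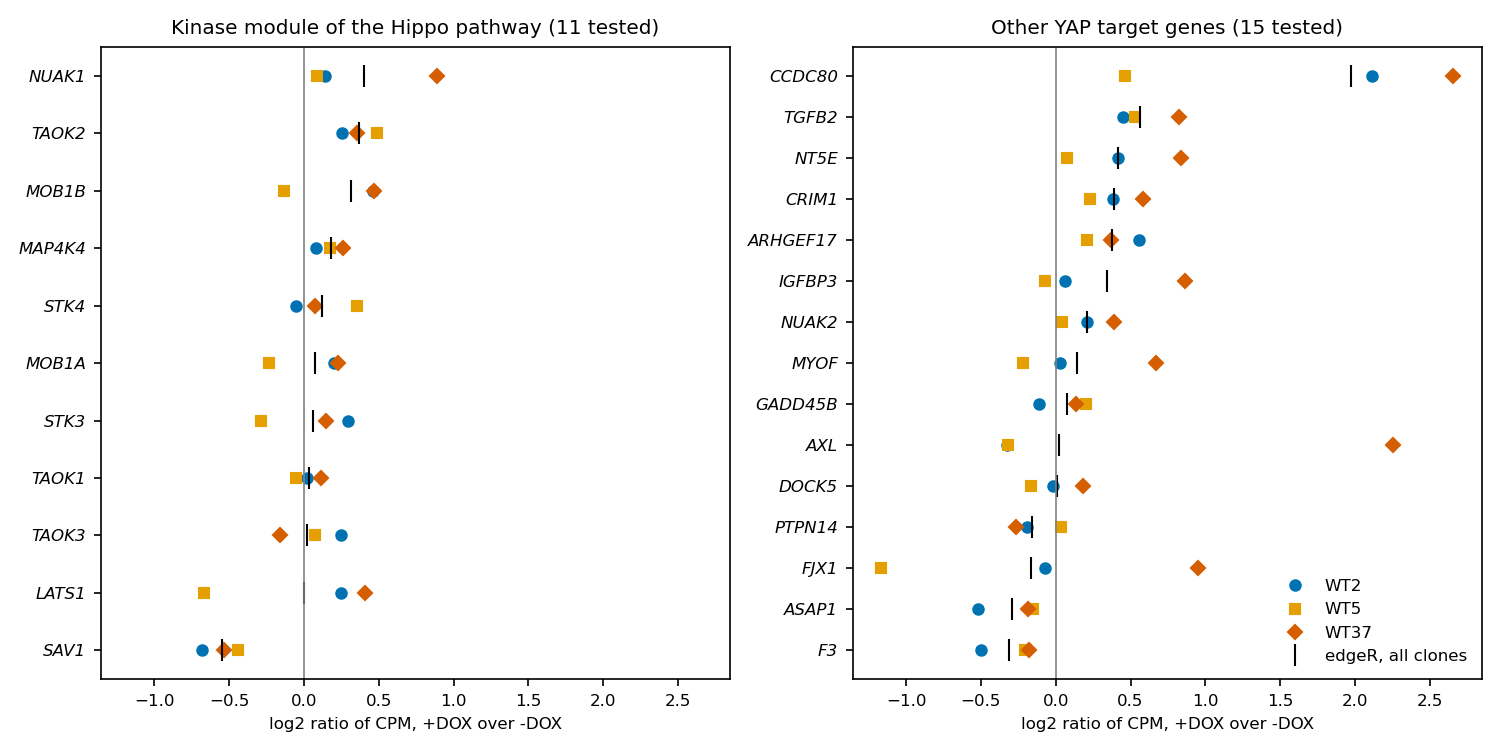
Log2 ratio of CPM with DOX over without DOX for each tested gene of the kinase module (left) and of the further YAP targets (right), 1 point per clone, with the edgeR log2 fold change over all clones as a black tick. SAV1 lies below 0 in all 3 clones, and the WT37 points of the targets have a median of 0.59.

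CCN1, CCN2 and ANKRD1 also belong to programmes driven by the serum response factor SRF and, for CCN1, to the immediate early genes, which respond within minutes to serum or stress. Of 12 tested SRF targets, 1 rose with DOX with the block and 0 fell, and the median was -0.03. The gene that rose was CALD1, the actin-binding protein caldesmon, by 1.34 on the log2 scale with the block, from 7.20 to 17.9 CPM. In edgeR its adjusted p was 0.0361 with the block and 0.326 without it, and in DESeq2 0.0111 and 0.00842. The blocked edgeR call of CALD1 was lost without WT2 (adjusted p = 0.254) and without WT37 (0.298). The abundant actin genes ACTG1 and ACTB had log2 fold changes of -0.14 and 0.01, and the crosslinker FLNA of 0.40. Immediate early genes (13 of 16 tested) had 0 calls, a median of -0.14 and 10 of 13 fold changes below 0, with IER2 at -0.23, JUNB at -0.11 and EGR1 at -0.24. Their median log2 ratio in WT37 was -0.03, with single genes from -0.87 (ATF3) to 1.61 (ZFP36), the lowest and the highest of the 13. Their part in the CCN1 level of WT37 was not tested.

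**Figure D4:**
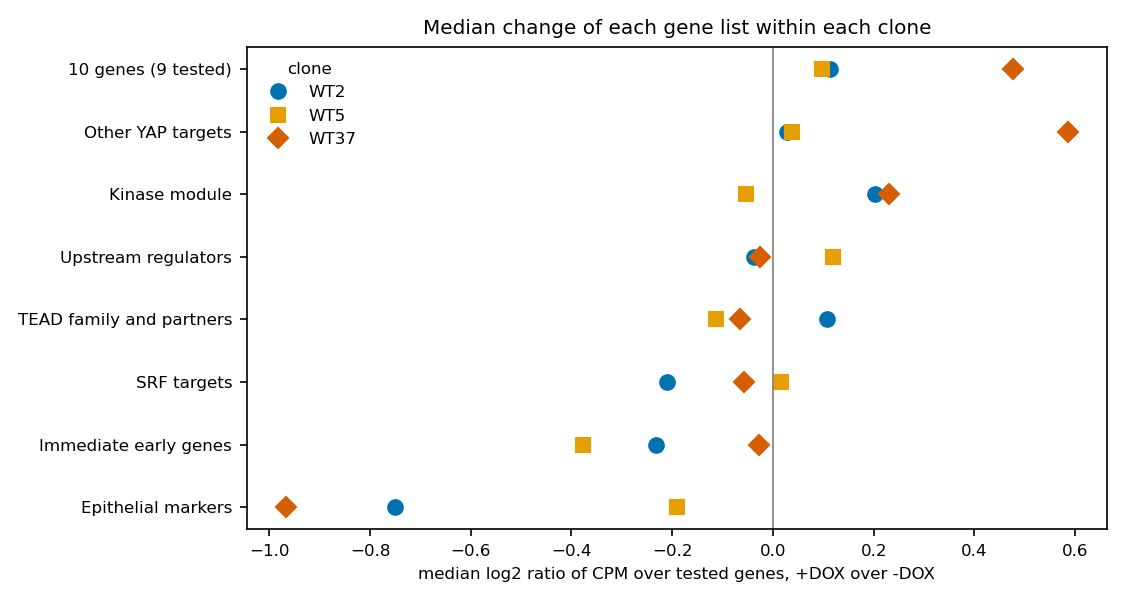
Median log2 ratio of CPM with DOX over without DOX for 8 gene lists (rows), 1 point per clone. The mesenchymal markers and the markers of other cell types, with 2 and 1 tested genes, are not drawn. In WT37 the 9 tested genes and the further YAP targets have medians of 0.48 and 0.59, above the medians of the other 6 lists drawn, and the epithelial markers are at -0.97.

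As a description of how the genes varied together over the 6 libraries, CCN1 followed AMOTL2 (Pearson r = 0.949 on log2 CPM) and YAP1 (r = 0.90), both of which were highest in WT37 with DOX. WWTR1 followed AJUBA (r = 0.907) and not YAP1 (r = 0.01), and CCN1 and CCN2 had r = 0.41. Of 11731 other tested genes, the closest to YAP1 were POGLUT3, TFE3 and XIAP (r = 0.992 to 0.995). Those closest to CCN1 were TTLL3, RPL26P30 and DEGS1 (0.977 to 0.984), and those closest to CCN2 were TIGD6, FAM20B and SAMD10 (0.986 to 0.992). With 6 points and so many genes, values of this size are reached by many pairs, and libraries of a clone share their origin.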

How the data were processed

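QuantSeq 3′ mRNA-Seq libraries of 6 DLD-1 samples were analysed. In the deposited table, values are unnormalized counts of reads for each Ensembl gene. Per the submitters' processing notes the build was GRCh38 and DESeq2 was used, with aligner, counting program, annotation and strand setting not given in the sources used here. Overlapping genes may therefore share reads. Besides genes, 4 rows hold reads given to no gene (4.29% to 5.25% unmapped, 11.8% to 16.0% multimapping, 8.72% to 11.7% in no feature, 6.86% to 7.40% ambiguous), and they were left out of library sizes and tests. Symbols came from an Ensembl table and GENCODE 29, which also gave positions.

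Tests used R 4.3.3, edgeR 4.0.16 (quasi-likelihood, robust, TMM, filterByExpr on the DOX groups, 11732 genes) and Benjamini-Hochberg adjustment over all tested genes, threshold 0.05. DESeq2 1.42.0 was an alternative. Standard errors are the log2 fold change divided by the square root of F. The DOX fits in edgeR, DESeq2 with the block and the comparison of WT37 with WT2 were tested on simulated data. The simulated DOX change was the same in every clone, so responses that differ between clones were not covered. For the clone comparison, only the planted differences of WT37 were simulated between clones. Same-numbered libraries come from 1 clone, and they deviated together from their group means (r = 0.489, 0.284 and 0.53 for WT2, WT5 and WT37), so the clone block pairs them. Depth was 5440093 to 7164426 reads in genes per library, and exact 95% intervals and floors of 3 reads cover counting error only. Alternatives were other scaling, no filter, DESeq2, the block and leaving out each clone. The members and gene lists were chosen with earlier results of these data known. From the lists, genes past the threshold with or without the block and otherwise up to 3 of the most abundant tested genes per list are named. Some others are named that were chosen after their values were seen. CD14 was the 1 tested marker of other cell types.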

Additional observations from a re-analysis of the deposited data

Results flagged for a closer look

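CCN2 had log2 ratios of opposite sign in 2 clones, with counting intervals that both excluded 0: -0.50 in WT2 and 0.78 in WT37, a difference of 1.28 on the log2 scale. Each clone gives 1 pair of libraries, so this difference between clones was not tested. The counts behind it were 154 and 128 reads in WT2 and 75 and 135 in WT37, without and with DOX.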

How the results depend on the processing

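Of the 9 tested genes, 0 passed with DOX in the main test and 1, CCN1, without a filter on low counts. None of the 9 passed under another scaling, DESeq2, the clone block (with or without the filter) or with any clone left out. Of 117 DOX fold changes of these genes under the alternatives, 111 kept their direction and side of the threshold, 5 reversed and 1 (CCN1) came to pass. CCN2 was at -0.20 without WT37 and -0.03 without WT5 (range -0.1957 to 0.4818 over the clones left out), and LATS2 at -0.02 without WT37 (range -0.01842 to 0.302). With the clone block and without WT37, CCN2 was at -0.1471 and LATS2 at -0.03164. The near-zero difference of YAP1 between WT5 and WT2 turned to -0.0009381 without a filter and -0.0001172 without WT37. CCN1 ranged from 0.02 without WT37 to 0.83. Of 108 differences between clones, 102 kept direction and side. The clone term held 0 of the 9 genes in the main test, 2 without a filter, and 0 to 2 with a clone left out (2 without WT5).

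Over all genes, 0 passed with DOX in the main test, 57 with DESeq2, 206 without a filter and 0 to 4 with a clone left out (4 without WT5). With the clone as replicate block, 152 passed, with 133 in DESeq2, 155 with DESeq2 size factors and 518 without a filter. With the block and a clone left out, 8 passed without WT2, 5 without WT37 and 743 without WT5. With the filter on low counts the block changed no call among the 9 genes, and without the filter it ended that of CCN1. Genes differing among clones numbered 802, with 441 in DESeq2, 1783 without a filter and 129 (without WT37) to 1788 (without WT5) with a clone left out. The causes of these shifts were not tested. Reads for ANKRD1 and AMOTL1 were too few to show moderate differences, and with 1 library per clone and condition only counting error is known within a clone.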
